A study of Mus musculus with 3 samples.

Results

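The 42 genes described here are cell division genes, a set listed by name for its known roles in the cell cycle, followed here in single cells of mouse sciatic nerve. They were 42 of the 21438 genes listed in at least 1 of the libraries, and all 42 had a row in every injured table, while Bub1b had no row in the uninjured table and was counted there as 0. By role, 26 act in G2 and mitosis (the G2/M members), 11 act in DNA synthesis (the S members), 2 are Cks subunits of cyclin-dependent kinases, and 3 regulate passage through G1. The values are whole-number counts of unique molecular identifiers (UMIs, random tags that mark each captured transcript) from Drop-seq, a droplet method for single cells. A pool is the sum over its cells, and a level is given as CPM, the UMIs of a gene for each 1000000 UMIs of its pool.

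All mice were adult and wild type, and 3 libraries were compared, 1 per group. The first was the distal sciatic nerve of CD1 mice 9 days after nerve resection, passed through myelin removal beads (4300 barcodes, of which the authors set 1289 apart as mesenchymal). The second was the same injured segment of CD1 and C57BL/6 mice sorted by FACS (2000 barcodes); what the sort selected on is not stated in the labels. The third was the uninjured sciatic nerve of CD1 mice processed with beads, of which 880 cells that the authors predicted to be mesenchymal were analysed here. Resection leaves the distal segment without its axons, so these are cells of a denervated nerve. The number of animals behind a library is not stated either. With 1 library a group there is no test: every interval below is a 95% interval for counting error only, and differences between animals are not in it. Intervals of levels and ratios count UMIs as independent of each other. The spread between cells of a pool is thus not in them either, and they are too narrow where few cells hold many of the UMIs. Median depth per cell was 2798 UMIs in injured mesenchymal cells, 6081.5 UMIs in the 616 mesenchymal-like cells of the FACS library and 2102.5 UMIs in uninjured mesenchymal cells. The 9 mesenchymal marker genes summed to 61863, 56323 and 99077 CPM in these pools, with every marker detected in each. The injured libraries shared 1 barcode.

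A cell that divides first copies its DNA in S phase and then separates the copies in mitosis. D- and E-type cyclins carry it out of G1, the MCM helicase and the enzymes that make deoxynucleotides serve replication, and cyclin B with Cdk1, kinesins, centromere proteins and the anaphase-promoting complex serve mitosis. Transcripts of the last group build up late in the cycle and are low in resting cells. Nerve injury is known to bring Schwann cells and other resident cells of the distal nerve back into the cycle. In a pool of cells, fewer positive cells and less RNA per positive cell cannot be told apart from a pool's level alone.

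G2/M transcripts were abundant in injured mesenchymal cells and close to the detection limit in uninjured ones. Summed over all 26 members they stood at 704 CPM (interval 680 to 728) in injured mesenchymal cells and 502 CPM (481 to 524) in FACS mesenchymal-like cells, against 36.9 CPM (29.2 to 45.9) in uninjured mesenchymal cells. The injured beads pool was 19.1-fold higher than the uninjured pool (15.3 to 24.1) and the FACS pool 13.6-fold higher (10.9 to 17.3). Top2a, the topoisomerase that untangles replicated chromosomes, had 115 CPM in the injured pool, 66.5 CPM in the FACS pool and 3.69 CPM in the uninjured pool. Its injured level was 31.3-fold higher than the uninjured one (15.8 to 72.9). Prc1, which bundles microtubules of the central spindle, had 64.9, 41.9 and 2.31 CPM in the same order of pools. Mki67, the proliferation antigen that coats mitotic chromosomes, had 59.4 CPM in the injured pool, 27.8 CPM in the FACS pool and 1.84 CPM in the uninjured pool. The uninjured Mki67 level rested on 4 UMIs, all from 1 cell.

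The other G2/M members were also lowest in the uninjured pool, with few UMIs behind each uninjured value. Birc5 (a chromosomal passenger; 36.4 CPM in injured, 48.3 CPM in FACS and 1.38 CPM in uninjured cells), Ccnb2 and Aurkb were higher in the FACS pool than in the injured beads pool. Tpx2, a spindle assembly factor, had 35.2 CPM in injured, 24.2 CPM in FACS and 0.461 CPM in uninjured cells. The uninjured value was 1 UMI, so its injured ratio of 76.3 carried an interval of 13.5 to 3032. Cdk1, the mitotic kinase, had 41.3, 37.6 and 1.38 CPM, and its partner cyclins Ccna2 and Ccnb2 had 16.9 and 21.9 CPM in the injured pool against 0.461 and 2.77 CPM in the uninjured pool. Hmmr, a spindle protein, had 118 UMIs in the injured pool and 78 in the FACS pool against 0 in the uninjured pool. With the uninjured pool set at 3 counts its injured ratio was 18.0, and the interval of that ratio started at 14.4. Bub1 and Bub1b (spindle checkpoint kinases), Kif4 and Kif14 (kinesins) were also at 0 in uninjured cells. Set in the same way, the injured ratios were 8.23 for Bub1 (interval from 6.46), 5.03 for Bub1b (from 3.86), 6.70 for Kif4 (from 5.23) and 2.59 for Kif14 (from 1.89). The smallest G2/M ratios to uninjured cells with UMIs on both sides were those of Ect2, a cytokinesis factor (3.59-fold, 1.63 to 9.35), and Aurka, a centrosome kinase (4.799-fold, 1.17 to 42.2). In the FACS pool the intervals of Aurka and Ect2 included 1 and Kif14 had 4 UMIs.

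**Figure D1:**
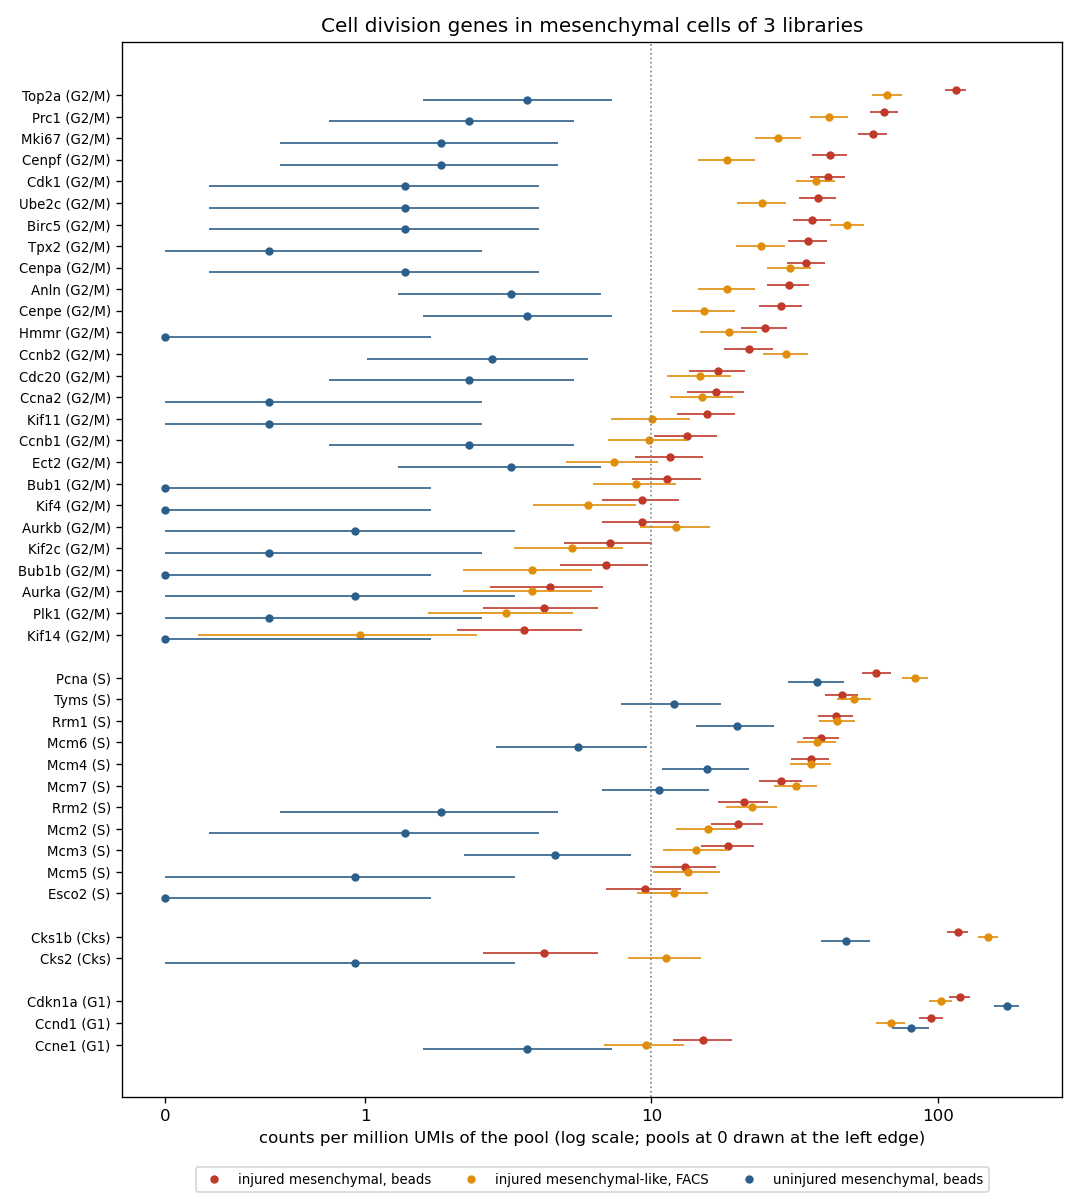
Level of each of the 42 members in CPM (log axis, pools at 0 at the left edge) in injured mesenchymal cells (beads), injured mesenchymal-like cells (FACS) and uninjured mesenchymal cells (beads), with 95% Poisson intervals for counting error; the dotted line marks 10 CPM. The uninjured points lie left of both injured points for every G2/M member, lie closer to them for S members such as Pcna, and lie to the right for Cdkn1a (174 CPM in uninjured cells).

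Read by a fixed rule of size, a member was called where a pool reached 10 CPM, the pools differed at least 2-fold and the interval of their ratio left out 1. Of the 42 members, 33 reached 10 CPM in the injured or the uninjured pool and 30 of these were called higher in injured cells, where 10.1% of all 9783 genes at that level were. Among the members 0 were called lower, where 6.9% of all genes were. Over all genes the calls were 991 higher and 675 lower, and with TMM scaling, which lowers every log2 ratio by 0.13, they were 767 higher and 846 lower; the members' count stayed at 30. Every G2/M member that passed the floor did so through the injured pool alone, so that count is fixed in part by the floor. With no floor, 39 of the 42 members were higher in injured cells (7.63% of 18440 genes), among them 26 of 26 G2/M, 10 of 11 S, 2 of 2 Cks and 1 of 3 G1 genes. The median log2 ratio over the 42 was 2.97, with genes at 0 in uninjured cells set at 3 counts there, and over all genes it was 0.03. In the FACS pool 30 of 32 members at 10 CPM were called higher than in uninjured cells (10.9% of 9721 genes) and 0 lower (8.56%). With no floor 37 of 42 were higher there (8.58% of 17187 genes), with a median of 2.76 against −0.01 over all genes. Both comparisons share the uninjured pool. Injury and library cannot be told apart with 1 library a group, and in the FACS comparison strain, sorting and the choice of cells differ as well.

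Markers of other cells moved with these pools. Of 11 macrophage or monocyte markers, 10 were detected in the injured pool (293 CPM summed) and 10 in the FACS pool (967 CPM). The uninjured pool held 7 of them (19.4 CPM), with C1qa, C1qc and Ms4a7 at 0. Adgre1 was found in none of the 3 pools. It had no row in the injured beads library, so its absence there is not a measured 0. The 4 erythroid markers summed to 112 CPM in injured, 0.479 CPM in FACS and 1610 CPM in uninjured cells, and the 9 Schwann cell markers to 118, 120 and 382 CPM. Without cells holding 2 or more UMIs of another class's markers, 28 of 32 members at 10 CPM were called higher in the injured pool, where 10.7% of all genes were. This compared 680 injured with 373 uninjured cells. In the FACS library the same filter left 63 cells, at a median of 2158 UMIs. There 3 of 10 members at 10 CPM were called, where 7.76% of all genes were.

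Members of the S group were higher in injured cells by smaller ratios, from a higher uninjured level. Summed over the 11 genes they stood at 337 CPM (321 to 354) in injured and 363 CPM (345 to 381) in FACS cells, against 110 CPM (96.7 to 125) in uninjured cells, which is 3.06-fold (2.67 to 3.52) and 3.29-fold (2.87 to 3.79) higher. Pcna, the sliding clamp of DNA polymerase, had 61.1 CPM in injured, 83.3 CPM in FACS and 37.8 CPM in uninjured cells. Its ratio was 1.62 (1.26 to 2.09) in the injured pool, short of 2-fold, and 2.20 (1.73 to 2.84) in the FACS pool. A processed pseudogene, Pcna-ps2, has a row of its own in all 4 tables with 719 UMIs in the injured beads library, so the Pcna count depends on how shared reads were assigned. Tyms, thymidylate synthase, had 46.1, 51.0 and 12.0 CPM in injured, FACS and uninjured cells. Rrm1 and Rrm2 are the subunits of ribonucleotide reductase, and they differed. Rrm1 had 44.0 CPM in injured against 19.8 CPM in uninjured cells (2.22-fold, 1.59 to 3.16), while Rrm2 had 21.1 CPM in injured against 1.84 CPM in uninjured cells (11.4-fold, 4.33 to 42.8).

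The 6 subunits of the MCM helicase, which unwinds DNA ahead of the fork, differed in their ratios. Mcm2 and Mcm5 had 20.02 and 13.1 CPM in injured cells against 1.38 and 0.922 CPM in uninjured cells, ratios of 14.5 (4.804 to 71.4) and 14.2 (3.76 to 120). Mcm6 was 7.08-fold and Mcm3 4.02-fold higher in injured cells. Mcm4 and Mcm7, at 36.0 and 28.4 CPM in injured cells, had 15.7 and 10.6 CPM in uninjured cells, and their ratios were 2.30 and 2.68. Esco2, which joins sister chromatids, had 45 UMIs in injured, 50 in FACS and 0 in uninjured cells. With the uninjured pool set at 3 counts its injured ratio was 6.86 (interval from 5.35).

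Among the Cks and G1 members, Cks1b, Ccnd1 and Cdkn1a had over 40 CPM in uninjured cells too. Cks1b, a small subunit that binds cyclin-dependent kinases, had 118 CPM in injured, 150 CPM in FACS and 47.9 CPM in uninjured cells, 2.45-fold (1.99 to 3.05) and 3.13-fold (2.54 to 3.89) higher than uninjured. Cks2 had 4.21, 11.2 and 0.922 CPM. Ccne1, cyclin E1, had 15.2 CPM in injured, 9.57 CPM in FACS and 3.69 CPM in uninjured cells, 4.11-fold higher in the injured pool (1.98 to 9.89). Ccnd1, cyclin D1, had 94.8 CPM in injured and 68.4 CPM in FACS cells against 80.7 CPM in uninjured cells, and was not called in either comparison (log2 ratio 0.23 in the injured pool and −0.24 in the FACS pool). Cdkn1a, the cyclin-dependent kinase inhibitor p21, had 119 CPM in injured and 102 CPM in FACS cells against 174 CPM in uninjured cells. Its log2 ratios, −0.54 (−0.74 to −0.35) and −0.77, left out 0 without reaching 2-fold.

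Genes of the cycle outside the 42 were read from lists chosen for their role. Of 31 other S genes, 21 were higher in injured cells with no floor, and of 44 other G2/M genes, 35 were, where 7.63% of all genes were. At 10 CPM the counts were 12 of 19 and 25 of 27, with 0 lower in either list, where 10.1% of all genes were higher and 6.9% lower; most of these genes passed that floor through the injured pool alone. With UMIs in both pools, the 3 highest ratios of other S genes called at 10 CPM were those of Clspn (a checkpoint adaptor; 20.2 CPM in injured against 0.922 CPM in uninjured cells), Hells (a chromatin remodeller; 24.4 and 1.38 CPM) and Ccne2 (cyclin E2; 14.3 and 0.922 CPM), and the 3 lowest those of Gins2, Rpa2 and Rfc2 (28.9, 30.1 and 45.5 CPM in injured cells against 14.3, 14.3 and 19.4 CPM in the uninjured pool). Tk1, thymidine kinase, had 90 UMIs in the injured pool and 0 in the uninjured pool. Among other G2/M genes with UMIs in both pools the 3 highest were Spc24 (a kinetochore subunit; 15.6 and 0.461 CPM), Cdca8 (a chromosomal passenger; 25.3 and 0.922 CPM) and Cenpm (a centromere protein; 12.4 and 0.461 CPM). Spc25 and Nuf2, kinetochore subunits, had 113 and 74 UMIs in the injured pool and 0 in the uninjured pool. The smallest called ratios there were those of Cdc25b (16.6 and 7.38 CPM), Smc4 (156 and 67.8 CPM) and Hmgb2 (40.03 and 15.2 CPM). Of 20 G1 regulators and brakes at 10 CPM, 4 were higher in injured cells and 3 lower, against 10.1% and 6.9% of all genes. The higher ones were Cdk4 (254 CPM in injured against 114 CPM in uninjured cells), Cdk2, Cdkn2c and Rbl1. The lower ones were the antiproliferative Btg2 (264 CPM in injured against 713 CPM in uninjured cells), the growth arrest gene Gas1 (187 and 429 CPM) and Myc (30.8 and 61.8 CPM). In FACS cells Gas1 (log2 ratio −0.90) and Myc (−0.47) were not called, nor was Rbl1 (2.64), which at 8.61 CPM lay under the floor. Btg2 and Myc are also immediate early genes, and enzymatic dissociation is known to induce such genes. Whether dissociation bears on these values was not tested.

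Since the G2/M members moved together, the stretch upstream of their starts was read for short elements. CHR elements, here TTTGAA or TTTAAA, and CCAAT boxes are known from promoters of mitotic genes, and E2F sites, here TTCGCGC or TTGGCGC, from genes of replication. RefSeq promoters (GRCm38.p6, 250 bases before to 50 after the start) were available for 36 of the 42 members, and each element was searched on both strands, with a gene counted once if any of its promoters held it. A CHR element lay between 100 bases before and 50 after the start in 20 of 23 G2/M members and 2 of 9 S members, and in 14.7% of all 27025 genes of that table. CCAAT lay in that window in 18 of 23 G2/M and 7 of 9 S members, and in 26.3% of all genes. An E2F element lay there in 2 of 23 G2/M and 3 of 9 S members, and in 2.62% of all genes. Over the whole promoter the counts for CHR were 22 of 23 and 3 of 9, with 30.6% of all genes. Matches may overlap (TTGGCGC with its opposite-strand form, or an E2F element with CCAAT), and a match is a run of letters, not a shown binding site. The 150 bases before the start are printed for 4 G2/M and 2 S members, picked after their matches were seen to show the elements side by side, 5′ to 3′ on the gene's strand, with matches in capitals.
Top2a: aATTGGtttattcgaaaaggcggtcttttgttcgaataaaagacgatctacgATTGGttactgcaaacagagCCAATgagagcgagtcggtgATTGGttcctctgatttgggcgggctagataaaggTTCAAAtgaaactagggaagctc
Mki67: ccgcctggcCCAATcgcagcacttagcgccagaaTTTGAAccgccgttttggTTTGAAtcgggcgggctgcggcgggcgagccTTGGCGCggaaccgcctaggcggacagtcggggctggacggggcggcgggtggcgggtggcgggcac
Cdk1: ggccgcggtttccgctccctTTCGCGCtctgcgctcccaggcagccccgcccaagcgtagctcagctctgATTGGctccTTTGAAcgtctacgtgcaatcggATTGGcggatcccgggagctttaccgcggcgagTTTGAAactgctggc
Ccnb1: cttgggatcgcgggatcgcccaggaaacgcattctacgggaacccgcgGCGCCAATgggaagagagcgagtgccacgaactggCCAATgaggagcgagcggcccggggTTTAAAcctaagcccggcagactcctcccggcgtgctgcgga
Mcm6: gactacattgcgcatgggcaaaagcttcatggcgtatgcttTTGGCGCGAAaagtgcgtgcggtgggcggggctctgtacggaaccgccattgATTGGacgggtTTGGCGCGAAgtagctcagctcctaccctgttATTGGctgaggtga
Rrm1: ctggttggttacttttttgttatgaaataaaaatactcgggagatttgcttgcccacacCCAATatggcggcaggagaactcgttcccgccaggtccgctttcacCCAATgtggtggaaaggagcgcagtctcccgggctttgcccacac
These lie in GRCm38 at chr11:99024190-99024339 (minus strand) for Top2a, chr7:135716380-135716529 (minus) for Mki67, chr10:69352913-69353062 (minus) for Cdk1, chr13:100786487-100786636 (minus) for Ccnb1, chr1:128359706-128359855 (minus) for Mcm6 and chr7:102441545-102441694 (plus) for Rrm1. Top2a held 4 CCAAT boxes in either orientation, followed by a CHR element on the opposite strand 23 bases before the start. Mki67 held a CCAAT box, 2 CHR elements and an E2F element. Cdk1 and Ccnb1 each held CHR, CCAAT and E2F matches, with CHR nearest to the start. Mcm6 held overlapping E2F matches at 2 places, 2 CCAAT boxes and no CHR, and Rrm1 held 2 CCAAT boxes alone.

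The higher pool levels came from a minority of cells. A cell was counted as G2/M-positive if it held 3 or more UMIs summed over the 26 G2/M members. By this count 84 of 1289 injured mesenchymal cells (6.52%, exact binomial interval 5.23 to 8.005) and 61 of 616 FACS mesenchymal-like cells (9.90%, 7.66 to 12.5) were positive, against 4 of 880 uninjured cells (0.455%, 0.124 to 1.16). With each cell thinned to 1000 UMIs, so that depth was equal, the shares were 42 of 974 (4.31%, 3.13 to 5.78) in injured, 23 of 600 (3.83%, 2.45 to 5.70) in FACS and 2 of 761 (0.263%, 0.0318 to 0.946) in uninjured cells. The intervals of both injured pools lay above that of the uninjured pool with and without thinning. At matched depth the injured libraries overlapped. In the injured pool 75.5% of cells held 0 G2/M UMIs, and 1 cell held 218.

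Most positive cells of the injured nerve expressed several members at a time. The 84 injured cells held a median of 7 different G2/M members, with up to 25 of the 26 in a cell, and 36 of them held 10 or more. The 61 FACS cells held a median of 5 and up to 24. Only 1 or 2 members were held by 11 of the 84 injured and 15 of the 61 FACS cells. As the cells were chosen by the sum over these same members, these counts are set in part by that choice. Of the 4 uninjured cells, 1 held 10 members in 23 UMIs, among them Top2a, Mki67 and Prc1, and the Mki67 UMIs of the uninjured pool were all its own. Another held 7 UMIs of Cenpe alone, another 4 UMIs of Ccnb1 alone, and the last 4 UMIs of 3 members. Each of these 4 cells also held 2 or more UMIs of another class's markers. Without such cells the share was 34 of 680 (5.0%, 3.49 to 6.92) in the injured pool, 0 of 63 in the FACS pool and 0 of 373 in the uninjured pool. A count of 0 taken as at most 3 counts allows up to 4.76% in the FACS pool and 0.804% in the uninjured pool, and the exact intervals reach 5.69% and 0.984%. The cells left were shallower than their pools, at medians of 1468 UMIs (injured), 2158 UMIs (FACS) and 1543 UMIs (uninjured). Positive FACS cells were deeper than the other FACS cells, at medians of 8590 and 5885 UMIs. Whether depth or foreign markers bear on these shares was not tested.

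**Figure D2:**
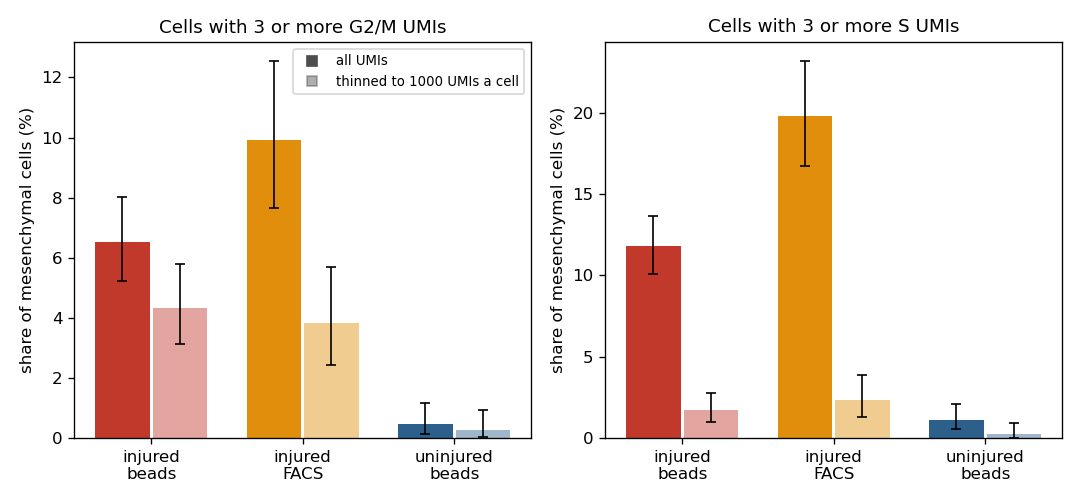
Share of mesenchymal cells (%) with 3 or more UMIs summed over the G2/M members (left) and the S members (right) in injured (beads), injured (FACS) and uninjured (beads) pools, for all UMIs (dark) and after thinning to 1000 UMIs a cell (pale); bars are shares, whiskers exact 95% binomial intervals, and the 2 panels have different scales. Both injured pools stand above the uninjured pool in each panel, and the FACS pool's lead over the injured beads pool in the dark bars is not present in the pale G2/M bars.

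Cells positive for S members were counted in the same way. They made up 152 of 1289 injured cells (11.8%, 10.1 to 13.7) and 122 of 616 FACS cells (19.8%, 16.7 to 23.2), against 10 of 880 uninjured cells (1.14%, 0.546 to 2.08). After thinning the shares were 1.75% (17 of 974), 2.33% (14 of 600) and 0.263% (2 of 761), with intervals of 1.02 to 2.78%, 1.28 to 3.88% and 0.0318 to 0.946%, so both injured pools again lay above the uninjured one. In both injured pools the S share exceeded the G2/M share for all UMIs and lay below it after thinning, while the G2/M sum in CPM was the higher of the 2 in injured cells, so no order of the phases is read from the shares. Positivity for both sets coincided. In the injured pool 48 cells were positive for both, 36 for G2/M alone and 104 for S alone. Of G2/M-positive cells 57.1% were S-positive, against 8.63% of the rest, and after thinning 16.7% against 1.07%. In the FACS pool the shares were 63.9% and 14.96%. Of the uninjured cells 0 were positive for both.

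Removing the G2/M-positive cells from both pools left part of the S difference in place. In the remaining 1205 injured and 876 uninjured cells 7 members were called higher in injured cells, of 12 at 10 CPM, where 8.83% of all genes were. They were Mcm2 (13.9 CPM in injured against 1.39 CPM in uninjured cells), Mcm3 (16.5 and 4.63 CPM), Mcm6 (32.0 and 5.56 CPM), Mcm7 (21.7 and 10.7 CPM), Tyms (24.5 and 12.0 CPM), Cks1b (101 and 48.2 CPM) and Ccne1 (13.4 and 3.71 CPM). Pcna was not called. In the 555 remaining FACS cells 4 of 10 members at 10 CPM were called, where 9.54% of all genes were: Mcm6, Tyms, Cks1b and Cdk1. The G2/M members were low here by the way the cells were chosen. This count was added after the data were seen.

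Within the injured mesenchymal cells, members that had no part in the G2/M sum were compared between the 84 positive and the 1205 other cells. All 11 S members, both Cks members and Ccne1 were called higher in positive cells at a floor of 10 CPM, where 7.33% of 9956 genes outside the G2/M sum were called higher and 4.08% lower. Rrm2 had 165 CPM in positive cells against 4.24 CPM in the others, a log2 ratio of 5.28 (4.53 to 6.11), and Rrm1 195 against 26.4 CPM. Tyms had 231 CPM in positive and 24.5 CPM in other cells, and Pcna 205 and 44.2 CPM. Esco2 had 42 UMIs in positive cells and 3 UMIs in the others, a log2 ratio of 6.90 (5.26 to 9.24). The smallest S ratio was that of Mcm3, at 1.13 on the log2 scale (0.30 to 1.90). In the FACS pool all 11 S members and both Cks members were higher in its 61 positive cells as well, where 6.04% of 9558 genes outside the G2/M sum were. With injured cells thinned to 1000 UMIs, which leaves few counts, Pcna, Mcm6, Cks2 and Ccne1 were not called, at log2 ratios of 1.40, 1.496, 3.76 and 1.30. In thinned FACS cells Mcm4 (log2 ratio −0.32, 1 UMI in positive and 11 in other cells), Mcm5 (3.14) and Mcm6 (0.68) were not called.

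Among the G1 members, Ccne1 had 30.1 CPM in positive against 13.4 CPM in other injured cells (log2 ratio 1.17, 0.24 to 2.01) and 14.9 against 8.67 CPM in FACS cells (log2 ratio 0.78, −0.47 to 1.89). Ccnd1 had 46.2 CPM in positive cells against 100.5 CPM in other injured cells (log2 ratio −1.12, −1.79 to −0.52) and was called lower. In FACS cells it had 66.2 against 68.8 CPM (log2 ratio −0.06), and in injured cells thinned to 1000 UMIs the log2 ratio was 0.55, so this call depends on library and depth. Cdkn1a had 36.2 CPM in positive cells against 129 CPM in the others (log2 ratio −1.84, −2.60 to −1.16). After thinning Cdkn1a had 3 UMIs in positive cells, a log2 ratio of −1.44 (−3.74 to 0.147), and was not called. In FACS cells it had 121 CPM in positive and 99.3 CPM in other cells (log2 ratio 0.28, −0.10 to 0.65). The differences between the libraries were not tested.

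**Figure D3:**
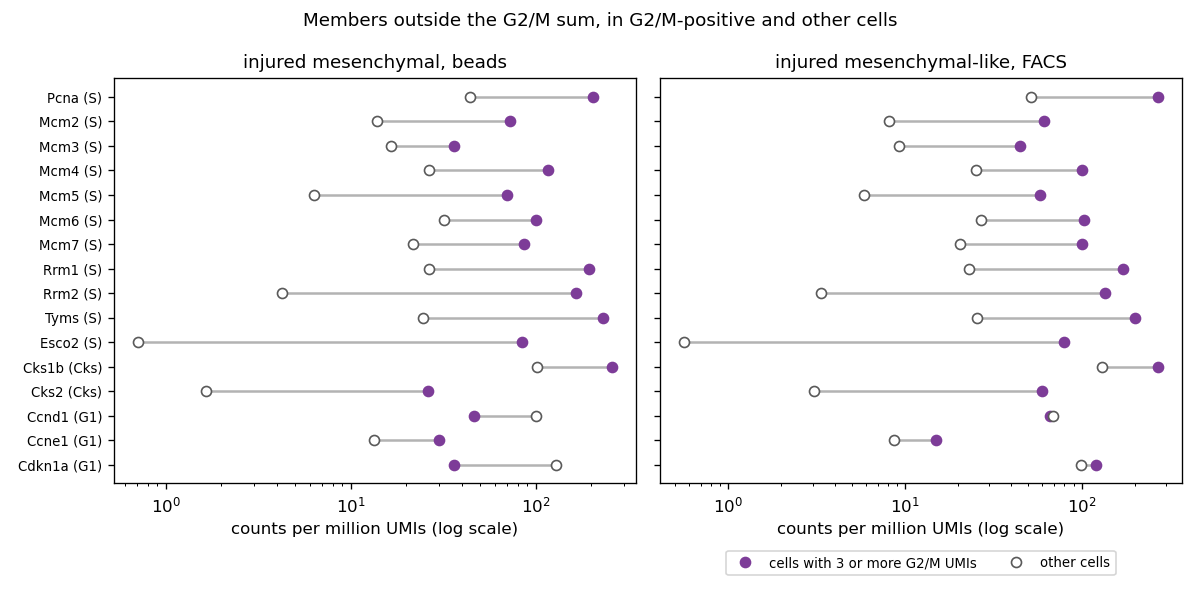
Level in CPM (log axis) of the 16 members outside the G2/M sum, in cells with 3 or more G2/M UMIs (filled) and in other cells (open), for injured mesenchymal cells of the beads library (left) and mesenchymal-like cells of the FACS library (right). Filled points lie right of open points for all S and Cks members in both panels; Ccnd1 and Cdkn1a lie clearly the other way in the left panel, and in the right panel the Ccnd1 points nearly coincide while Cdkn1a is higher in positive cells.

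Genes outside all division lists that differed most between positive and other injured mesenchymal cells were named at a floor of 50 CPM, where 5.13% of 4188 genes were called higher and 2.75% lower. The 8 highest were Cdkn3, Hist1h1b, Ska1, Shcbp1, Ska3, Casc5, Kif15 and Sgol2, which are themselves genes of chromosome segregation or the cycle. Kif15, a spindle kinesin, had 141 CPM in positive and 1.88 CPM in other cells, and Ska1, a kinetochore protein, 80.4 and 0.706 CPM. The 8 lowest were Comp, Inmt, Dpp4, Pcolce2, Cd55, Angptl7, Slfn5 and Gsn. Comp, a matrix protein, had 2.01 CPM in positive cells against 63.1 CPM in the others. Inmt had 0 UMIs in positive cells and 389 in the others. Pcolce2, an enhancer of procollagen processing, had 10.05 against 92.3 CPM, and in the FACS pool 1.66 against 122 CPM. Angptl7 had 22.1 against 140 CPM in the injured pool and 227 against 215 CPM in the FACS pool, and was not called there, nor was Cd55.

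Several marker lists differed between positive and other cells. The 6 epineurial markers summed to 611 CPM in positive and 1569 CPM in other injured cells, 4 of them called lower. The 6 markers of differentiating cells summed to 10524 and 8383 CPM with 0 called. The 6 endoneurial markers summed to 1580 CPM in positive and 2168 CPM in other cells, with 1 called lower, and the 9 pericyte or smooth muscle markers to 324 and 242 CPM, with 2 called higher. The 10 macrophage or monocyte markers with a row summed to 866 CPM in positive and 226 CPM in other cells, with 5 called higher. Of the 431 phagocyte UMIs of the positive cells, 359 were in 2 cells, and without the cells that hold 10 or more such UMIs the positive share was 6.40% (82 of 1282). Positive cells were deeper, at a median of 5307 UMIs against 2714, and 59.5% of them held 2 or more UMIs of another class's markers, against 46.4% of the others. The caller used found too few doublets to have worked, and the share of doublets among these cells was not measured.

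Positive cells were unevenly spread over mesenchymal subclasses, which were formed by clustering injured and uninjured cells together with division genes left out. In the injured pool 70 of 660 differentiating-like cells were positive (10.6%, 8.36 to 13.2). Endoneurial-like cells had 8 of 242 (3.31%, 1.44 to 6.41) and perineurial-like cells 2 of 73 (2.74%, 0.334 to 9.55). Epineurial-like cells had 0 of 198, which allows up to 1.52% by the rule of 3 counts and 1.85% by the exact interval. After thinning, 38 of 489 differentiating-like cells (7.77%, 5.56 to 10.5) and 1 of 237 endoneurial-like cells (0.422%, 0.0107 to 2.33) were positive. The interval of differentiating-like cells stayed above those of endoneurial-like and epineurial-like cells and overlapped that of perineurial-like cells. Endoneurial-like cells were the deepest, at a median of 6403 UMIs against 3083.5 in differentiating-like cells. Clustering all injured beads cells, also without division genes, gave another split. There a cluster led by Cilp, Mest and Dlk1 had 16 of 372 positive (4.30%, 2.48 to 6.89). One led by Wif1 and Epyc had 10 of 278 (3.60%, 1.74 to 6.52), so these intervals overlapped. A separate mesenchymal-like cluster of 36 cells, led by division genes, had 35 positive. How those cells were shared among the subclasses was not examined. In the uninjured pool 2 of 428 endoneurial-like and 2 of 380 epineurial-like cells were positive, and 5 cells were differentiating-like.

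The same count was taken over all classes of cells in the injured libraries, named from their markers. In the beads library 319 cells were positive, of which 27.9% were Schwann cell-like (12.5% of cells), 19.7% mesenchymal-like (24.4% of cells), 17.2% endothelial cell-like (14.0%) and 10.7% B cell-like (9.39%). Schwann cell-like cells, the glia of the nerve, had 89 positive of 514 (17.3%, 14.1 to 20.9) and 2529 CPM of summed G2/M members. In the FACS library they had 19 of 101 (18.8%, 11.7 to 27.8) and 1833 CPM. That FACS value depends on the clustering: with division genes kept among the variable genes, a mesenchymal-like cluster of 68 cells led by Top2a formed, and 10 of 82 Schwann cell-like cells (12.2%) and 320 CPM remained. Endothelial cell-like cells had 9.53% and 867 CPM in the beads library and 6.90% and 677 CPM in the FACS library. Pericyte or smooth muscle cell-like cells had 8.47% (5.56 to 12.3) and 1465 CPM. Mesenchymal-like cells had 6.28% and 707 CPM in the beads library and 9.90% and 502 CPM in the FACS library. Mononuclear phagocyte-like cells were lower in both, at 1.38% (0.555 to 2.81) and 261 CPM in the beads library and 2.40% (1.43 to 3.77) and 216 CPM in the FACS library (133 CPM with division genes kept in the clustering).

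Neutrophil-like cells served as the background for free RNA, since neutrophils do not divide once mature. Their beads cluster was led by S100a9, S100a8, Ngp and Camp, and how mature its cells were was not examined. Neutrophil-like cells had 1 positive of 123 (0.813%, 0.0206 to 4.45) at a median of 591 UMIs, and 119 CPM from 10 UMIs. Mast cell-like cells had 0 of 36 in the beads library and 2 of 20 with 489 CPM in the FACS library. The phagocyte share in the beads library overlapped the wide interval of that background. The phagocyte level there, 261 CPM (228 to 298), lay above the 119 CPM (57.2 to 219) of neutrophil-like cells. Its interval overlapped that of mast cell-like cells of the same library, at 143 CPM (61.5 to 281). Lymphocytes were shallow, at a median of 764.5 UMIs in B cell-like and 870 UMIs in T or NK cell-like cells, and their shares moved up when shallow cells were left out by thinning. B cell-like cells had 8.81% of all cells and 19.2% (25 of 130) of thinned cells, with 3376 CPM. T or NK cell-like cells had 9.09% and 16.5% (13 of 79), with 2107 CPM. Schwann cell-like cells had 11.3% (42 of 372) after thinning in the beads library and 10.3% (7 of 68) in the FACS library, where 0 of 61 were positive with division genes kept in the clustering. The unthinned order of B cell-like and Schwann cell-like cells went against the CPM, so no order between them is read from the shares.

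**Figure D4:**
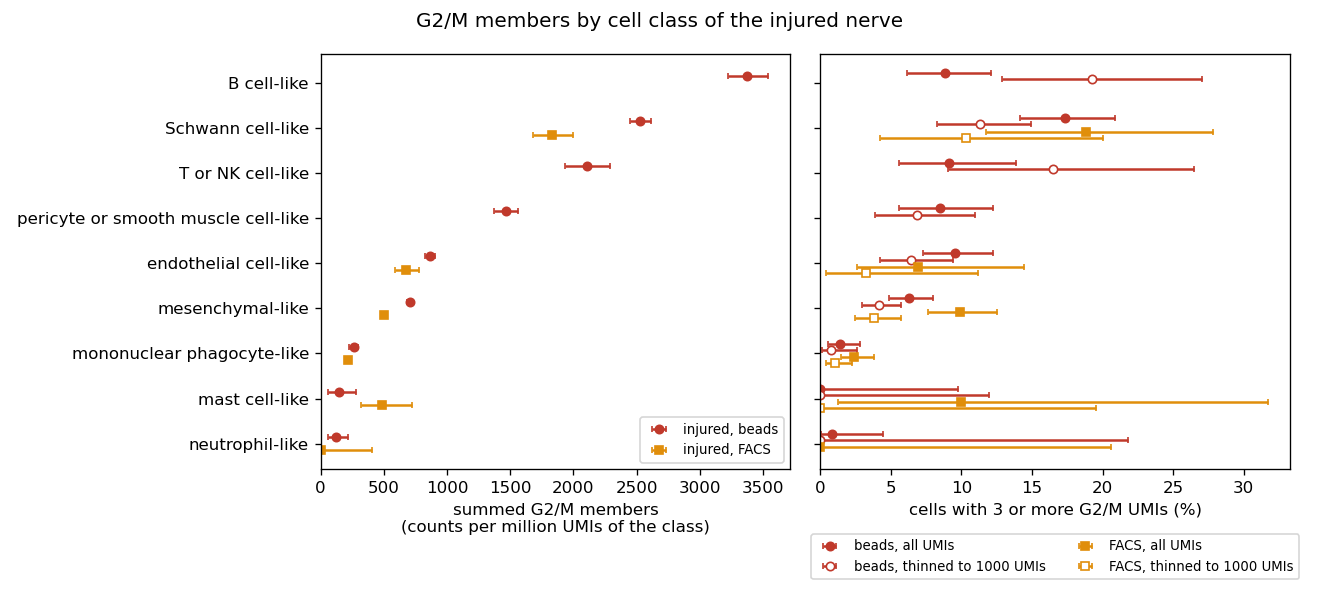
Summed G2/M members in CPM of the class (left, 95% Poisson intervals) and share of cells with 3 or more G2/M UMIs (right, exact 95% binomial intervals) by cell class of the injured nerve; circles are the beads library, squares the FACS library, and open symbols cells thinned to 1000 UMIs, shown where at least 15 cells remained. B cell-like, Schwann cell-like and T or NK cell-like cells have the highest levels, from 3376 to 2107 CPM in the beads library, and phagocyte-like, mast cell-like and neutrophil-like cells of that library lie at or under 261 CPM.

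Within some classes, clusters differed in their positive cells. Of the B cell-like clusters, a group of 59 cells led by Ighg1, Igj and Ighg2b had 30 positive cells (50.8%, 37.5 to 64.1) and 62.7% S-positive cells, while the 327 cells of the cluster led by Ly6d, Bank1 and Fcer2a had 4 (1.22%, 0.334 to 3.10). After thinning these were 23 of 49 and 2 of 81. Endothelial cell-like cells led by Cldn5 and Gpihbp1 had 41 of 298 positive (13.8%, 10.1 to 18.2), and those led by Darc and Selp, genes of venular endothelium, had 14 of 279 (5.02%, 2.77 to 8.28). These clusters differed in depth, at medians of 2934.5 and 1057 UMIs, and their thinned shares of 8.98% (5.71 to 13.3) and 2.11% (0.438 to 6.05) had overlapping intervals. T or NK cell-like cells led by Cd3g and Il17a had 17 of 171 positive (9.94%, 5.90 to 15.4). Those led by Gzma and Nkg7 had 2 of 38 (5.26%, 0.644 to 17.7), and these intervals overlapped. After thinning the intervals, 11.7 to 33.2% and 0 to 19.5%, overlapped as well.

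Even with the division genes left out of clustering, small clusters formed that were led by them. One of 36 mesenchymal-like cells had 35 positive, one of 14 Schwann cell-like cells had 13 positive, and in the FACS library one of 25 mesenchymal-like cells had 24 positive. These shares are fixed by what formed the clusters and are given as a description. The mesenchymal-like cluster led by Inmt, Comp and Gsn had 0 positive of 223 in the beads library, and the one led by Inmt, Fmo2 and Comp had 0 of 48 in the FACS library.

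Individual members followed the summed level in most classes of the beads library, with exceptions. Mki67 was highest in B cell-like cells at 575 CPM, against 214 CPM in Schwann cell-like, 263 CPM in T or NK cell-like and 59.0 CPM in mesenchymal-like cells. Prc1 was highest in Schwann cell-like cells, at 326 CPM in the beads and 321 CPM in the FACS library, against 101 CPM in B cell-like cells. Anln, which scaffolds the cytokinetic ring, had 115 CPM in Schwann cell-like and 83.7 CPM in pericyte or smooth muscle cell-like cells, and 19.4 CPM in B cell-like and 15.05 CPM in T or NK cell-like cells. Top2a ranged less, from 369 CPM in B cell-like, 361 CPM in T or NK cell-like and 338 CPM in Schwann cell-like cells to 117 CPM in mesenchymal-like cells. Among S members Mcm3 had 245 CPM in B cell-like and 135 CPM in T or NK cell-like cells against 45.2 CPM in Schwann cell-like cells. Mcm2 had 18.4 CPM in Schwann cell-like and 19.4 CPM in mesenchymal-like cells, although the G2/M sum was 2529 and 707 CPM there.

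The G1 members had class patterns of their own. Ccnd1 had 614 CPM in Schwann cell-like cells, 312 CPM in endothelial cell-like, 181 CPM in pericyte or smooth muscle cell-like and 97.0 CPM in mesenchymal-like cells, and 19.4 CPM in B cell-like and 15.05 CPM in T or NK cell-like cells. In the FACS library it had 563 CPM in Schwann cell-like, 235 CPM in endothelial cell-like and 68.4 CPM in mesenchymal-like cells. Lymphocyte-like cells, with a high G2/M sum, were thus low in Ccnd1. Cdkn1a had 1610 CPM in neutrophil-like cells, at most 211 CPM in any other named class of the beads library, and 9.72 CPM in B cell-like cells. Cks1b had 224 CPM in B cell-like, 116 CPM in mesenchymal-like and 102 CPM in Schwann cell-like cells, and 20.97 CPM in mononuclear phagocyte-like cells.

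**Figure D5:**
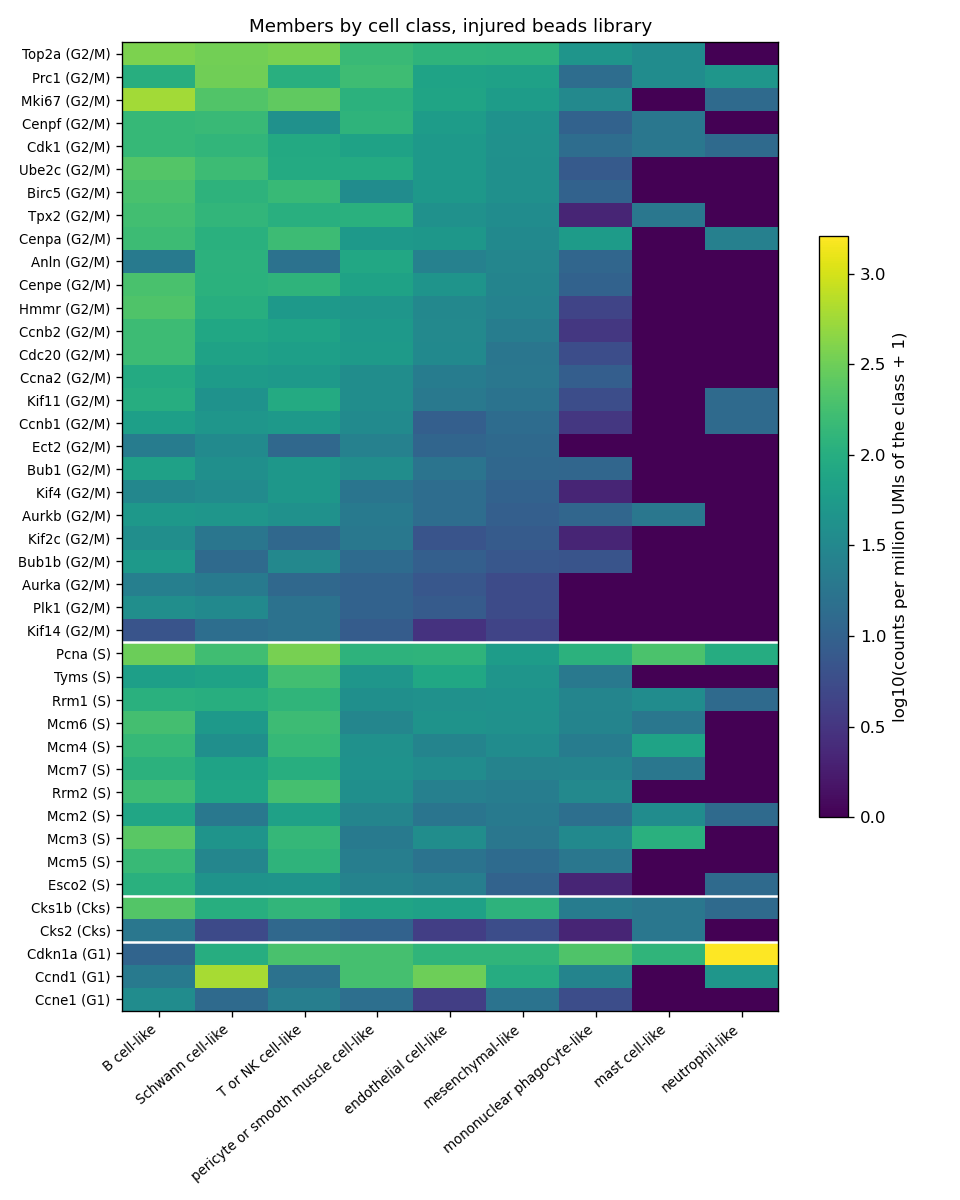
Level of each member as log10(CPM + 1) in the named cell classes of the injured beads library, with members grouped by role (white lines) and classes ordered by their summed G2/M level. The G2/M block darkens from left to right, the S block less evenly, while Ccnd1 is brightest in Schwann cell-like cells (614 CPM) and Cdkn1a in neutrophil-like cells (1610 CPM).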

How the data were processed

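Drop-seq cells of mouse sciatic nerve were measured in 3 libraries, 1 per group. The authors deposited raw UMI counts in 4 tables of genes by cells, with mm10 named as genome build per the submitters' processing notes. The aligner, counting tool and strand setting are not given, nor is how mesenchymal cells were picked. The members and all lists were chosen with earlier results of these data known. Barcodes with at least 200 genes were kept in the full injured tables (4111 and 1914). Scrublet called 2 and 5 doublets, too few for a caller that works; these were dropped and others may remain. Cells were clustered with scanpy 1.11.5 and leidenalg 0.10.2 (2000 variable genes without division genes, 30 components, 15 neighbours, resolution 0.8), and clusters were named "-like" from listed markers, of which at least 3 had to be detected. Summed counts were scaled to CPM. Ratios carry exact conditional binomial 95% intervals, levels Poisson and shares Clopper-Pearson intervals. edgeR 4.0.16 and DESeq2 1.42.0 gave other scalings only. A pool at 0 was set at 3 counts over the pool. Members of at least 50 CPM in a mesenchymal pool are named with values, and other members and the levels by class by examples. Other division genes are named by the 3 extreme called ratios. Genes outside the lists are named by the 8 extreme ratios, leaving out haemoglobin, mitochondrial and ribosomal protein genes and provisional gene models. Totals were 10859939 UMIs (beads), 7122377 (FACS) and 2169121 (uninjured mesenchymal). The ratio rule was tested on simulated data. Pseudogene or retrogene copies of Ccnb1, Ccnb2, Cks1b, Kif4 and Tyms are annotated in GENCODE and had no row, so reads they share are uncertain. One comparison of clusters within a class is not reported here.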

Additional observations from a re-analysis of the deposited data

How the results depend on the processing

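No paired analysis was possible because each group has 1 library, and for the same reason no replicate could be left out. Counts of members higher than in uninjured cells stayed within 1.5 times of 30 under both other scalings, no floor and thinning. At 50 CPM they were 4 (injured) and 4 (FACS), as fewer genes reach that floor. Without cells of 3 or more G2/M UMIs, an alternative added after the data were seen, they were 7 of 12 and 4 of 10 members at 10 CPM. Without cells with another class's markers they were 3 of 10 in FACS. Shares below are in percent. G2/M shares in injured and FACS mesenchymal cells were 10.2 and 14.9 at 2 or more UMIs, 4.89 and 6.98 at 5 or more, 4.31 and 3.83 after thinning to 1000 UMIs, and 10.9 and 24.5 with Cks1b and Cks2 added. Without cells with another class's markers they were 5.0 (injured), 0 (FACS) and 0 (uninjured). S shares in injured, FACS and uninjured cells were 20.6, 34.9 and 4.55 at 2 or more UMIs, 5.20, 9.74 and 0.114 at 5 or more, and 1.75, 2.33 and 0.263 after thinning; without cells with another class's markers they were 6.76 (injured) and 3.17 (FACS). By class, thinning gave G2/M shares in the FACS library of 10.3 (Schwann cell-like), 3.83 (mesenchymal-like) and 1.03 (phagocyte-like), and S shares of 5.88, 2.33 and 0.684. In the beads library thinning gave G2/M shares of 19.2 (B cell-like), 11.3 (Schwann cell-like), 6.46 (endothelial cell-like) and 4.17 (mesenchymal-like), and S shares of 20.8, 6.99, 2.33 and 1.91. With 500 genes a cell, G2/M shares there were 15.5 (B cell-like), 12.4 (endothelial cell-like) and 3.33 (phagocyte-like), and S shares 21 (B cell-like), 19.1 (Schwann cell-like), 18.5 (endothelial cell-like) and 5.33 (phagocyte-like). Keeping division genes in the clustering gave a G2/M share of 12.7 in FACS mesenchymal-like, 12.2 in FACS Schwann cell-like (320 CPM) and 0 in injured perineurial-like cells, and resolution 0.4 an S share of 10.6 in beads mesenchymal-like cells. Clustering thinned injured cells anew gave 7.69 (differentiating-like) and 1.14 (endoneurial-like). Between G2/M-positive and other cells, the Ccnd1 log2 ratio turned to 0.55 after thinning and was −0.055 in FACS cells, the Cdkn1a log2 ratio turned to 0.28 in FACS cells, and that of Cks1b was 1.06 there. Beyond what thinning and fewer cells or genes bring by construction, the cause was not tested. Of the other comparisons, 96 kept their value within its interval or count range. Depth limits the uninjured members, most with under 10 UMIs.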
